A study of Mus musculus with 2 samples.

Results

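Amino acid, peptide and sugar transporters of the solute carrier (SLC) families were followed in mouse colon RNA after a short period on psyllium, a viscous seed-husk fibre. A gene was included when a probe set named that gene alone in the array platform's annotation and its symbol belonged to SLC1, SLC2, SLC3, SLC5, SLC6, SLC7, SLC15, SLC36, SLC37 or SLC38, with Slc5a8 left out. This gave 98 probe sets for 93 of the 22180 genes on the array. Of these, 4 carry such a symbol without being transporter genes: the opposite-strand genes Slc7a6os, Slc6a19os and Slc36a1os and the pseudogene Slc2a4rg-ps. The other 89 are transporter genes. A gene was read as measured when its intensity was 70 or more on the brighter array, which 43 of the 93 genes reached, 42 of them transporter genes.

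The series compared male ICR mice, an outbred stock, that were 7 weeks old and described as healthy. The psyllium group ate a diet with 10% psyllium for 5 days, and the control group ate the diet without it. Total RNA of the colon was hybridised to 1 whole-transcript array per diet. How many mice contributed to each array and which stretch or layer of the colon was taken are not given in the sources used here. With 1 array per diet no difference has a replicate check, so values and folds describe these 2 arrays, and no error, p-value or test of the diets is given.

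As background, transport across the gut lining needs carriers on both faces of the epithelial cell. Sodium- or proton-coupled carriers on the luminal (brush border) face load the cell, and exchangers and facilitative carriers on the blood-facing side let the cargo out. Several amino acid carriers are pairs: a light chain of the SLC7 family conducts the substrate, and a heavy chain, Slc3a1 (rBAT) or Slc3a2 (4F2hc, CD98), brings it to the membrane. The small intestine does most of the absorption of dietary sugars, peptides and amino acids, while the colon expresses a narrower set of these carriers.

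The psyllium array had intensities from 1.76 to 13841 with a median of 49.8 over 41345 probe sets, and the control array ran from 1.92 to 13675 with a median of 48.9. The colonocyte genes Car1 (7791 on the psyllium array, 10100 on the control array) and Slc26a3 (2134 with psyllium, 2679 in the control) were well above the limit on both. The colonocyte gene Aqp8 was below the limit on the psyllium array (50.5) and above it on the control array (307). The posterior gene Hoxd13 was below the limit on both (29.4 with psyllium, 23.5 in the control). Over the 11048 genes past the limit the median difference, log2 psyllium minus log2 control, was -0.04 and its SD across genes was 0.33. At least 1.5-fold higher with psyllium were 14 of 15 smooth muscle and 11 of 14 fibroblast and matrix markers past the limit. At least 1.5-fold lower were 6 of 11 small-intestinal, 4 of 5 T cell and 0 of 18 epithelial markers past it. With the limit on both arrays these were 10 of 12 fibroblast and matrix, 4 of 8 small-intestinal and 4 of 4 T cell markers. The smooth muscle and epithelial counts were unchanged. In total RNA of the colon, fewer cells of a type and less RNA per cell cannot be told apart.

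Transporters at least 1.5-fold different lay mostly on the lower side. Of the 43 genes past the limit, 7 were lower by 1.5-fold or more with psyllium (16.3%), where 2.42% of all genes past the limit were. The 7 were Slc37a2, Slc3a1, Slc15a2, Slc7a9, Slc6a20a, Slc6a4 and Slc15a1. Slc15a2 (63.1) and Slc6a4 (59.1) were below the limit on the psyllium array and entered through the control array (112 and 91.9). With the limit applied on both arrays, 5 of 38 members were at least 1.5-fold lower and 1 was higher. The share of all genes was not counted under that setting. At least 1.5-fold higher was 1 gene, Slc38a1 (2.33%), where 4.03% of all genes were. The median difference over the 43 was -0.08, near that of all genes, and 35 of the 43 differed by less than 1.5-fold. At 2-fold, 2 members were lower (Slc37a2 and Slc3a1; 0.516% of all genes) and none was higher (1.06% of all genes).

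Of the 8 families with 3 or more genes past the limit, the lowest median was that of SLC15, the peptide carriers, at -0.64, followed by SLC5, the sodium-coupled sugar and vitamin carriers, at -0.40. Near 0 were SLC6 (-0.11), SLC37 (-0.10), SLC38 (-0.06), SLC2 (-0.04), SLC7 (0.00) and SLC1 (0.10), beside -0.04 for all genes. SLC3 and SLC36 had 2 genes each past the limit and are left out of this order: SLC3 averaged -0.71, from Slc3a1 at -1.33 and Slc3a2 at -0.10, and SLC36 averaged 0.16. The SLC15 and SLC5 medians rest on 3 genes each and depend on the limit: over all measured genes they were -0.19 for SLC15 and 0.04 for SLC5.

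**Figure D1:**
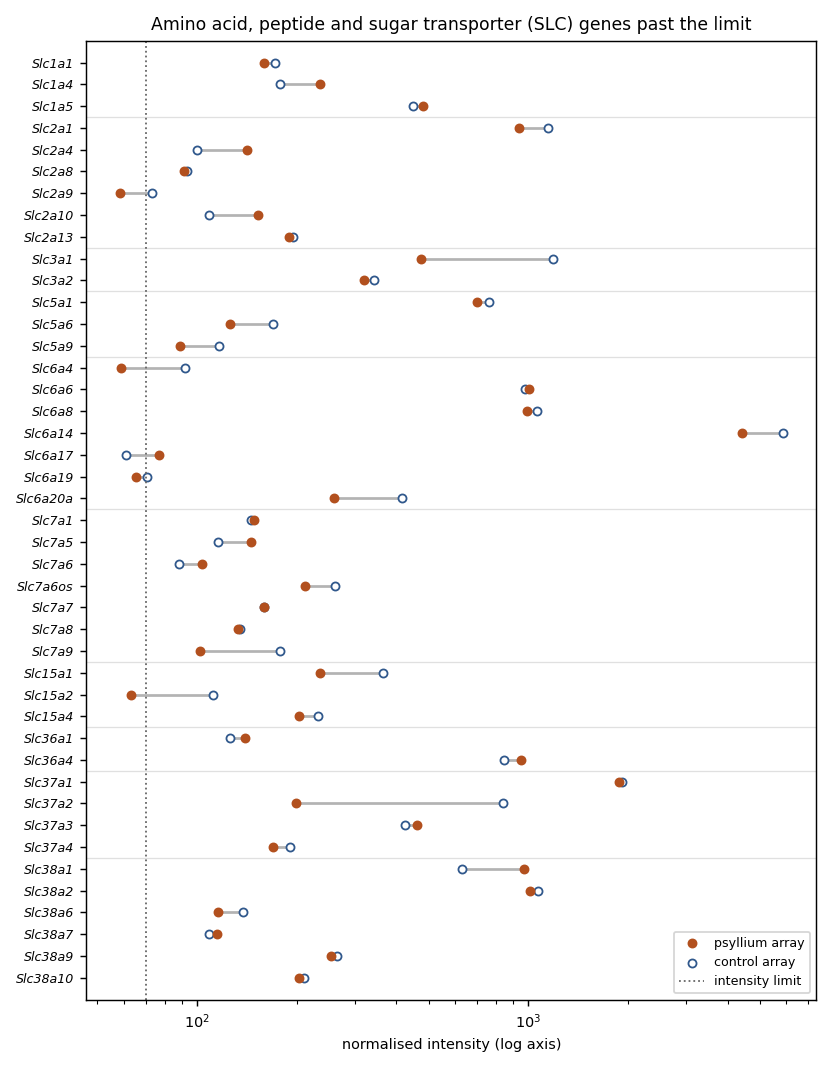
Normalised intensity on the psyllium array (filled) and the control array (open) of the 43 genes past the limit, on a log axis, ordered by family, with a line joining both values of a gene. The long lines belong to Slc37a2 (198 on the psyllium array, 841 on the control array) and Slc3a1 (473 on the psyllium array, 1190 on the control array), and the other pairs lie closer together.

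Luminal amino acid carriers held 3 of the 7 lower genes. Slc3a1, the heavy chain of the luminal system that takes up cystine and cationic amino acids, had an intensity of 473 on the psyllium array, against 1190 on the control array, 2.51-fold lower. Slc7a9, the light chain (b0,+AT) that pairs with Slc3a1 in that system, had 102 on the psyllium array, against 178 on the control array, 1.73-fold lower. Both subunits of the same transporter were thus lower on the psyllium array, the heavy chain by more. Among all 11048 genes past the limit Slc3a1 was the 31st lowest and Slc7a9 ranked 114 from the bottom. Slc6a20a, a sodium-coupled carrier of proline and other imino acids, had 259 on the psyllium array, against 416 on the control array, 1.60-fold lower.

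Other luminal amino acid carriers differed by less. Slc6a14, the colonic carrier of neutral and cationic amino acids (ATB0,+), had 4418 on the psyllium array and 5885 on the control array, a difference of -0.41. Slc1a1, the epithelial glutamate and aspartate carrier, had 160 on the psyllium array and 172 on the control array (-0.11). Slc1a5, the glutamine carrier ASCT2, had 481 on the psyllium array and 450 on the control array (0.10), and its second probe set gave 0.12. Slc36a1, a proton-coupled carrier of small neutral amino acids, had 139.999 on the psyllium array and 126 on the control array (0.15). Slc6a19 (B0AT1), the main neutral amino acid carrier of the small intestine, had 65.3 on the psyllium array and 70.7 on the control array (-0.11), and was the member nearest above the limit. Of the 9 genes of this group 8 were past the limit, with a median of -0.26, 3 at least 1.5-fold lower and none higher. That median was -0.41 with the limit on both arrays, -0.55 with a limit of 140 and -0.11 without a limit. Beside them, epithelial markers had a median of -0.26 and small-intestinal markers one of -0.69 (-0.60 with the limit on both arrays). Slc6a20b, which lies next to Slc6a20a in the RefSeq table and is a close copy of it, had 42.6 on the psyllium array and 35.8 on the control array, below the limit. How far the probes of these genes separate the copies was not tested.

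The promoters of Slc3a1, Slc7a9 and Slc6a20a, the luminal amino acid carriers at least 1.5-fold lower, and of Slc37a2, the member with the largest difference, are shown next, each from 250 bases before the transcript start to 50 after it, from RefSeq on build GRCm38.p6. Capitals mark matches, on either strand, to any of 6 short motifs. The half-site of the epithelial factor HNF1 was searched as GTTAAT, the core of the sites of the epithelial factor HNF4 as CAAAGTC, and sites of the caudal-type intestinal factors as TTTATG. Sites of the GATA-binding factors were searched as AGATAA, the start of the amino acid response element as TGATGNA, and the half-site of the nuclear receptors as AGGTCA. None of these motifs contains another.
Slc3a1, chr17:85028097-85028396, plus strand: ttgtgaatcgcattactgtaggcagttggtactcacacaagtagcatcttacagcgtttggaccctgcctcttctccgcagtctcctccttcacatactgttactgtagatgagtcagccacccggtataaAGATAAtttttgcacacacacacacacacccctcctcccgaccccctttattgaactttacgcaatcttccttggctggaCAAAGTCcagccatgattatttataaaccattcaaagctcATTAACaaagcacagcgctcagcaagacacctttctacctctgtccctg
Slc7a9, chr7:35448842-35449141, plus strand, the first of its 2 listed starts: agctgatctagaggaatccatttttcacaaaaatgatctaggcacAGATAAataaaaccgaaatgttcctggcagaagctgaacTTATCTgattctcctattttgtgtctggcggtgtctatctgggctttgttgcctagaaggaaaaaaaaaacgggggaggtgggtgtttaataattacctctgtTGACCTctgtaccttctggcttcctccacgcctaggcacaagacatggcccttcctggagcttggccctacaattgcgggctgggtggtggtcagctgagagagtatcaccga
Slc6a20a, chr9:123678783-123679082, minus strand: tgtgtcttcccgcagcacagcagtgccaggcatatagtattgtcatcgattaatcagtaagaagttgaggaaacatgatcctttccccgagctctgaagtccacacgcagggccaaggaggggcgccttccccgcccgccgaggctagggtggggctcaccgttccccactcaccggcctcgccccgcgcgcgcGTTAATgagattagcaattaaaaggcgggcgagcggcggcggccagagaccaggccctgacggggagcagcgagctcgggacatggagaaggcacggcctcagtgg
Slc37a2, chr9:37255689-37255988, minus strand: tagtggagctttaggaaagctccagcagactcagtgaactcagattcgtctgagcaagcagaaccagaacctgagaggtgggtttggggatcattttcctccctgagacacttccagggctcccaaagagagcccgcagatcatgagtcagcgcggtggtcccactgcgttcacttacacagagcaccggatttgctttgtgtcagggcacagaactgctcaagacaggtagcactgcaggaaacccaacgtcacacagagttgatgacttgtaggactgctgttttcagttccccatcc

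The Slc3a1 promoter held a GATA motif 119 bases and an HNF4 core 39 bases before the start, with an HNF1 half-site just downstream of it. The Slc7a9 promoter held GATA motifs 205 and 166 bases before the start and a nuclear receptor half-site 63 bases before it. The Slc6a20a promoter held an HNF1 half-site 56 bases before the start, and the Slc37a2 window held none of the 6 motifs. Over all 7 lower members, 3 had a GATA motif in a listed promoter (Slc3a1, Slc7a9 and Slc15a2), against 1 of the 29 members past the limit, under 1.5-fold and with a listed promoter. The motif was in 11.2% of all 32851 listed promoters. Each listed promoter counts singly in that share, whereas a member counts 1 time over all its listed starts. An HNF1 half-site was in 2 of 7, against 2 of 29, and in 7.10% of all promoters. The HNF4 core was in 1 of 7, against 1 of 29, and in 4.44% of all promoters. The amino acid response motif was in 1 of 7, against 2 of 29 (12.2% of all). That match lies in the window of the second listed start of Slc7a9, which is not shown. The nuclear receptor half-site was in 1 of 7, against 6 of 29 (16.3% of all), and the caudal-type motif in 0 of 7 and 0 of 29 (11.9% of all). These are matches of letters in short windows and describe sequence only.

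On the Slc3a2 side of the heteromeric carriers differences were smaller than those of the Slc3a1 pair. Slc3a2, the heavy chain of the blood-facing exchangers, had 320 on the psyllium array and 342 on the control array (-0.10). Its light chain Slc7a7 (y+LAT1), an exporter of cationic amino acids, had 158.9 on both arrays, and Slc7a8 (LAT2), an exchanger of neutral amino acids, had 133 on the psyllium array and 135 on the control array (-0.02). Slc7a5 (LAT1), the large neutral amino acid exchanger of dividing cells, had 146 on the psyllium array and 115 on the control array (0.33). Slc7a6 (y+LAT2) had 103 on the psyllium array and 88.0 on the control array (0.23). The 5 genes of this complex past the limit had a median of 0.00, and none differed by 1.5-fold. Slc7a11, the cystine-glutamate exchanger xCT, was below the limit with 30.1 on the psyllium array and 29.0 on the control array, as was the light chain Slc7a10 (0.17).

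Of the peptide carriers, both plasma membrane forms were lower on the psyllium array. Slc15a1 (PepT1), the proton-coupled carrier of dipeptides and tripeptides in the intestinal brush border, had 234 on the psyllium array, against 364 on the control array, 1.55-fold lower. Slc15a2 (PepT2), the high-affinity form best known from kidney and brain, had 63.1 on the psyllium array, against 112 on the control array, 1.77-fold lower. Its psyllium value lay below the limit, so the size of that fold is uncertain. Slc15a4, a lysosomal carrier of histidine and peptides, had 203 on the psyllium array and 232 on the control array (-0.19). The small-intestinal markers beside them had a median of -0.69 (-0.60 with the limit on both arrays). Slc15a3 (0.21) and Slc15a5 (-0.08) were below the limit.

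The sugar phosphate family had 1 gene far from its relatives. Slc37a2, an exchanger of sugar phosphates for phosphate in the endoplasmic reticulum membrane, had 198 on the psyllium array, against 841 on the control array, 4.24-fold lower, and ranked 4 from the bottom among all 11048 genes. Slc37a1 had 1878 on the psyllium array and 1913 on the control array (-0.03), and Slc37a3 had 462 on the psyllium array and 424 on the control array (0.12). Slc37a4, which carries glucose 6-phosphate into the endoplasmic reticulum for release of free glucose, had 169 on the psyllium array and 191 on the control array (-0.18). The other 3 members thus lay between -0.18 and 0.12.

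**Figure D2:**
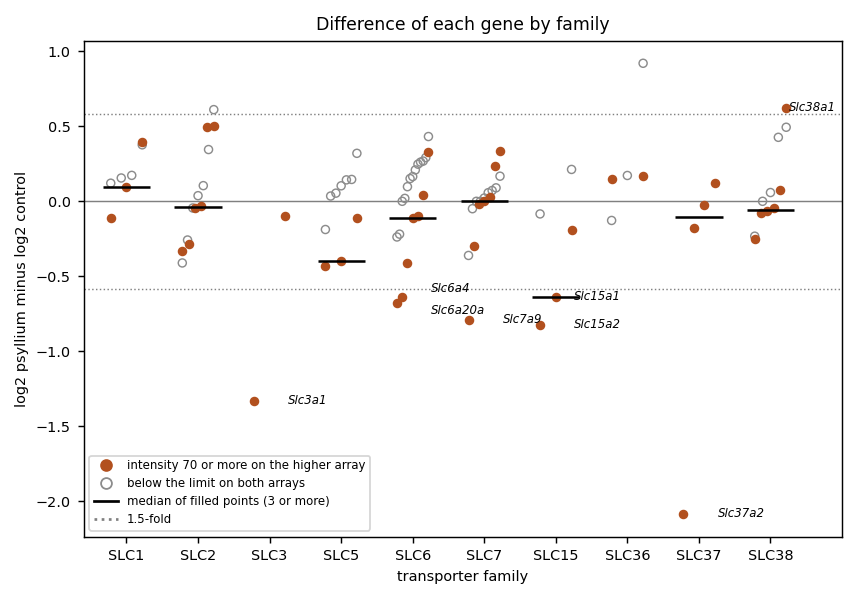
Difference of each of the 93 genes, log2 psyllium minus log2 control, by family; filled points reached an intensity of 70 on the brighter array, open points did not, bars are medians of the filled points and dotted lines mark 1.5-fold. The 7 labelled low points come from SLC3, SLC6, SLC7, SLC15 and SLC37, and Slc37a2 at -2.09 lies farthest from 0.

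Dietary sugar carriers differed little, or were too dim to read. Slc5a1 (SGLT1), the sodium-glucose carrier of the brush border, had 702 on the psyllium array and 759 on the control array (-0.11). Slc2a5, the fructose carrier, had 53.8 on the psyllium array and 64.4 on the control array, and Slc2a2 (GLUT2), the basolateral sugar carrier of enterocytes, had 44.8 on the psyllium array and 59.6 on the control array. Both lay below the limit on both arrays, with differences of -0.26 and -0.41. The other sodium-coupled SLC5 genes past the limit were lower without reaching 1.5-fold. Slc5a6, the carrier of the vitamins biotin and pantothenate, had 126 on the psyllium array and 170 on the control array (-0.43), and Slc5a9 (SGLT4), a mannose and fructose carrier, had 88.5 on the psyllium array and 117 on the control array (-0.40). The other 7 of the 10 measured SLC5 genes were below the limit.

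Genes of the SLC2 family went both ways, with none of the 6 past the limit reaching 1.5-fold. Slc2a1 (GLUT1), the widely expressed glucose carrier, had 941 on the psyllium array and 1144 on the control array (-0.28), and its dim second probe set gave -0.15. Slc2a4 (GLUT4), the insulin-responsive carrier of muscle and fat, had 141 on the psyllium array and 100.04 on the control array (0.50). Slc2a10 (GLUT10) had 153 on the psyllium array and 109 on the control array (0.49). These 2 were the SLC2 genes past the limit with positive differences, on arrays where 14 of 15 smooth muscle markers were at least 1.5-fold higher with psyllium (median 1.19). The part of muscle tissue in the Slc2a4 and Slc2a10 values was not tested. Slc2a8 (-0.03) and the myo-inositol carrier Slc2a13 (-0.04) had nearly the same value on both arrays, and the urate carrier Slc2a9 differed by -0.33, with 58.4 on the psyllium array, below the limit. Over Slc2a1, Slc2a3, Slc2a4, Slc2a6 and Slc2a8, the glucose carriers of other tissues, 3 were past the limit with a median of -0.03.

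The 1 gene at least 1.5-fold higher was Slc38a1 (SNAT1), a sodium-coupled carrier of glutamine and other small neutral amino acids. It had 970.3 on the psyllium array, against 631 on the control array, 1.54-fold higher, and ranked 395 from the top of all genes. Slc38a2 (SNAT2), its close relative and its neighbour in the RefSeq table, had 1011 on the psyllium array and 1067 on the control array (-0.08). The next gene along, Slc38a4, had 39.5 on the psyllium array and 28.1 on the control array, below the limit on both arrays (0.49). The 6 SLC38 genes past the limit had a median of -0.06. Slc38a9, the lysosomal arginine sensor, differed by -0.06, the lysosomal glutamine carrier Slc38a7 by 0.08, Slc38a10 by -0.05 and Slc38a6 by -0.25. Slc38a3 (30.9 on both arrays), Slc38a5 (0.06) and the other SLC38 genes were below the limit. In the system A and N group, Slc38a1 and Slc38a2 were the 2 of 5 past the limit.

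Lysosomal carriers as a group stood near 0. The 5 of 6 past the limit (Slc15a4, Slc36a1, Slc36a4, Slc38a7 and Slc38a9) had a median of 0.08, from -0.19 to 0.17. Slc36a4, a carrier of proline and tryptophan, had 953 on the psyllium array and 846 on the control array (0.17). Its second probe set had 180 on the psyllium array and 97.1 on the control array, 1.85-fold higher, so the 2 probe sets of this gene disagree about the size, and their mean gave 0.53. Slc36a3, a testis gene of this family, had 24.5 on the psyllium array and 12.9 on the control array, and with Slc2a12 (46.6 on the psyllium array, 30.5 on the control array) was one of the 2 members below the limit that differed by 1.5-fold or more.

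Carriers known to be induced through the transcription factor ATF4 when amino acids run short were not 1.5-fold different. Of the 8 measured, 6 were past the limit, with a median of 0.06. Slc1a4 (ASCT1), a carrier of alanine, serine and cysteine, had 234 on the psyllium array and 178 on the control array (0.39). Slc7a1 (CAT1), the widely expressed cationic amino acid carrier, had 148 on the psyllium array and 146 on the control array (0.03), and was the 1 gene of the 5 in its subfamily past the limit. Slc1a5, Slc3a2, Slc7a5 and Slc38a2 have been given above. Of 20 other amino acid response genes 14 were past the limit, none of them 1.5-fold different (1 higher without the intensity trend), with a median of 0.16 and 9 of 14 positive. Their differences ran from -0.36 for Cth, an enzyme of cysteine synthesis, to 0.54 for the stress gene Nupr1, with Atf4 itself at 0.11.

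Transmitter and osmolyte carriers were mostly too dim. Of 9 measured carriers of neurotransmitters and choline 1 was past the limit, Slc6a4 (SERT), which clears serotonin released by enterochromaffin cells and nerves. It had 59.1 on the psyllium array, below the limit, against 91.9 on the control array, 1.56-fold lower. Among the osmolyte carriers Slc6a6, the taurine carrier, was the 1 of 3 past the limit, with 1004 on the psyllium array and 976 on the control array (0.04). Of 7 osmotic response genes 5 were past the limit, at a median of -0.01, and none 1.5-fold different. Slc6a8, the creatine carrier, had 991 on the psyllium array and 1060 on the control array (-0.10), and Slc6a17, a carrier of neutral amino acids in synaptic vesicles, differed by 0.33. The 7 SLC6 genes past the limit had a median of -0.11, from -0.68 to 0.33.

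Of the brush border enzymes that produce the cargo of these carriers, 12 were measured and 9 were past the limit, with a median of -0.42, 2 at least 1.5-fold lower and none higher. All 9 had negative differences (8 without the intensity trend), as had 56.7% of all genes past the limit. Mep1b, a subunit of the peptidase meprin, had 536 on the psyllium array, against 1135 on the control array, 2.12-fold lower, whereas its partner subunit Mep1a had 2586 on the psyllium array and 2701 on the control array (-0.06). The peptidase neprilysin, Mme, had 109 on the psyllium array, against 200 on the control array, 1.83-fold lower. The sugar-splitting enzymes Sis (-0.08) and Mgam (-0.11) differed little, as did the glucose carrier Slc5a1. Cltrn, a partner of Slc6a19 in the kidney, was below the limit. Of 13 measured genes of hexose metabolism 10 were past the limit, none 1.5-fold different, with a median of -0.15.

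Markers of the cell types in the colon wall also differed between the arrays. All 18 epithelial markers were past the limit, with a median of -0.26, and none reached 1.5-fold. Of these 17 had negative differences, and 16, 15 and 13 after further quantile normalisation, after centring and without the intensity trend. Absorptive colonocyte markers had a median of -0.35, with 7 of 18 at least 1.5-fold lower (6 after further quantile normalisation, without the intensity trend or with the limit on both arrays), from -2.60 (the water channel Aqp8) to 0.48. After Aqp8 came Clca4a (-2.08) and the alkaline phosphatase Alpi (-1.71). Of 13 small-intestinal markers 11 were past the limit, all negative, at a median of -0.69, with 6 at least 1.5-fold lower, from -1.71 to -0.08. Alpi, which is on both lists, was followed there by the Paneth cell gene Mptx2 (-1.56) and the apolipoprotein gene Apoa4 (-1.21). Mptx2 was below the limit on the psyllium array (29.5) and entered through the control array (86.9). With the limit on both arrays, 4 of 8 small-intestinal markers were at least 1.5-fold lower, at a median of -0.60. The part of cell makeup and of gut region in the transporter differences was not tested.

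Other wall cells differed in both directions. Smooth muscle markers had a median of 1.19 and ran from 0.58 to 2.14, led by Actg2 (2.14), Synm (1.88) and Des (1.79). Fibroblast and matrix markers had a median of 1.31, with 11 of 14 at least 1.5-fold higher (10 of 12 with the limit on both arrays). The matrix genes Fn1 (2.61), Vcan (2.18) and Lum (2.14) led, with Vcan below the limit on the control array (50.4). The 3 under 1.5-fold were the cell-surface genes Pdgfra (0.32), Pdgfrb (-0.19) and Thy1 (0.50). The 10 macrophage markers past the limit had a median of 0.44, and 2 of them were at least 1.5-fold higher, Mrc1 (1.22) and Cd163 (0.78), against 3 under each of the other 3 scalings (further quantile normalisation, centring and removal of the intensity trend) and 1 with the limit on both arrays or of 140. T cell markers had 5 of 10 past the limit and a median of -0.87, with 4 at least 1.5-fold lower, led by Cd3e (-1.28), Ccl5 (-0.97) and Cd7 (-0.87). Endothelial markers had a median of 0.00 over 9 past the limit, with none 1.5-fold different. The list of enteric nerve and pacemaker cell markers had a median of 0.17 over 6 past the limit. Vip (2.23) was the 1 past 1.5-fold, against 2 genes under each of the 3 scalings named above. The pacemaker cell genes Kit (0.38) and Ano1 (0.56) were positive. Apart from Vip, the nerve genes past the limit were negative: Uchl1 (-0.03), Ret (-0.15) and Snap25 (-0.52).

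**Figure D3:**
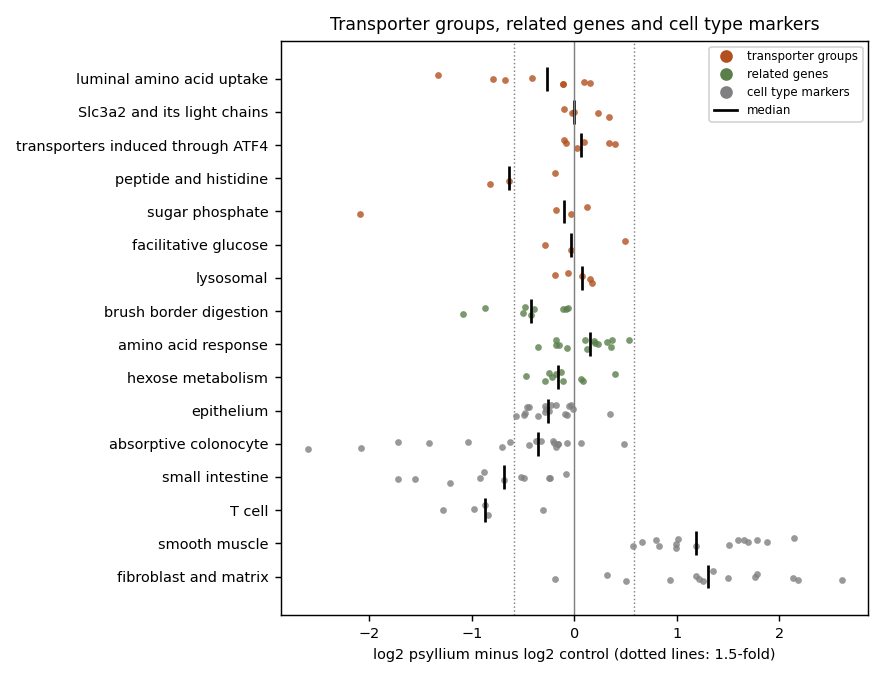
Differences, log2 psyllium minus log2 control, of the genes past the limit in transporter groups, related gene lists and cell type marker lists; each point is a gene, black bars are medians and dotted lines mark 1.5-fold. The median of the luminal amino acid carriers lies at -0.26 and that of the peptide carriers at -0.64. The smooth muscle median lies at 1.19 and the fibroblast and matrix median at 1.31.

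The remaining members were dim. The 50 genes below the limit had intensities from 9.14 to 66.6 on the psyllium array and from 9.14 to 69.9 on the control array, and their differences are not read. They comprise 13 SLC6, 9 SLC7, 7 SLC2, 7 SLC5, 5 SLC38, 4 SLC1, 3 SLC36 and 2 SLC15 genes. Just below the limit were Slc7a14 (54.4 on the psyllium array, 69.9 on the control array) and the kidney glucose carrier Slc5a2 (66.6 on the psyllium array, 60.3 on the control array), and just above it were Slc6a19 and Slc2a9. Of all 93 genes 5 had identical values on both arrays, as had 2.54% of all probe sets naming 1 gene, and Slc7a7 was the 1 of these past the limit. Slc7a6os, the opposite-strand gene beside Slc7a6, had 212 on the psyllium array and 261 on the control array (-0.30), whereas Slc7a6 differed by 0.23. Probe sets shared with another gene stayed out: that of Slc5a3 and Mrps6 differed by 0.01, that of Slc6a9 and Ccdc24 by -0.17 and that of Slc5a10 and Fam83g by 0.16.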

How the data were processed

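Total RNA of colons was measured on 1 array per diet. The values the authors deposited are normalised intensities, 1 for each probe set and linear in scale. The submitters' processing notes name RMA as well as Affymetrix Expression Console and state no version. Whether both arrays were equalised is not stated; if so, differences are relative to most transcripts. The platform annotation at GEO named the probe sets: 23521 of 41345 named 1 gene, 1814 several and 16010 none here. For a gene with several, the probe set with the highest mean log2 intensity was used. Values were converted to log2 without a pseudocount and subtracted (Python 3.11.15, pandas 2.3.3, numpy 2.4.6). No fit was possible, so no test was run. The limit of 70 and the fold of 1.5 set the counts. The number of arrays limits the precision, and probe sets of the same gene differed by a median of 0.19 on the log2 scale (285 genes with 2 past the limit). The members, gene lists and motifs were chosen with earlier results of these data known. Of 258 list entries 244 were measured. Named are all members past the limit and 1.5-fold different, a list of gut carriers, and up to 3 genes per other list by size of difference; further members are described to account for all those past the limit. Atf4, Cth, Nupr1, Mep1a, Sis, Mgam, Cltrn and the promoters shown were picked after their values were seen. So were Kit, Ano1, Uchl1, Ret, Snap25, Pdgfra, Pdgfrb and Thy1. The steps were tested on simulated data.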

Additional observations from a re-analysis of the deposited data

Results flagged for a closer look

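The second probe set of Slc36a4, which the comparison does not use because its mean is lower, was higher on the psyllium array by 0.89 on the log2 scale, while the probe set used differed by 0.17. Both were past the limit on both arrays. It was singled out as a signal in data outside the main comparison, and its cause was not tested.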

How the results depend on the processing

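No paired analysis was possible because each diet has 1 array, and no array could be left out. The counts and the difference of each of the 43 genes past the limit were recomputed. So were the medians of the 28 families and lists with 3 or more genes past the limit. The alternatives were the mean of a gene's probe sets, no limit, a limit of 70 on both arrays, or 140 on the brighter one. Others were further quantile normalisation, differences centred on the median of all genes, removal of the intensity trend (lowess) and RefSeq symbols. For the related and marker lists this was added after seeing the data. Of 327 gene values 326 stayed within 0.19 of the reported one, the median gap between probe sets of a gene. The exception was Slc36a4, at 0.53 by the mean of its probe sets. Most of these values could not have moved that far. A limit only chooses which genes enter, and centring shifts every gene by the same amount, less than 0.19. The mean of probe sets changes only genes with more than 1. The count is therefore no measure of how stable the values are. Of 224 medians 212 stayed within 0.19. The count of higher genes was 3 without the limit and 0 at 2-fold, and that of lower genes was 2 at 2-fold. The count of lower genes was 5 with a limit of 70 on both arrays or of 140, which leave out Slc15a2 and Slc6a4. It was 6 without the intensity trend, where Slc15a1 differed by -0.57. The members that entered were 38 with a limit of 70 on both arrays, 31 with one of 140 and 93 without a limit. The share of all genes was counted at 2-fold but not under the other settings, so these counts have no background beside them. Without the limit the SLC5 median was 0.045 and the SLC15 (peptide and histidine) median -0.19. The SLC15 median was -0.41 with a limit on both arrays and with one of 140, since fewer genes enter. With a limit of 140 the SLC2 median was 0.22 and the luminal amino acid median -0.55. The median of the enteric nerve and pacemaker cell list was 0.38 with the mean of probe sets, -0.058 without the limit and 0.47 with a limit of 140.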
